A study of Sus scrofa domesticus with 36 samples.

Results

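Described here are 7 genes of the connective tissue that lies between the main cells of fat and muscle: the matrix genes POSTN, CILP2, DCN and FBLN1, the matrix protease gene ADAMTS4, and the fibroblast and progenitor genes CLEC3B and PDGFRA. They were taken from the deposited gene table by matching its Ensembl identifiers to these symbols, and all 7 were found, each in 1 line, among 25322 genes. Expression was measured by RNA sequencing in 18 young crossbred pigs, each of which gave 1 library from the fat under the skin of the back (called adipose) and 1 from the longissimus dorsi muscle (called muscle). The growth protocol names the cross as Danbred 600 × Newsham NC32, and the breed field gives a different NC number from library to library. The submitters took 9 pigs with the slowest growth and 9 faster growers from 1 commercial group, but the labels used here do not say which pig is which, so growth classes were not compared. No pig was treated or carried an engineered allele. The design text places sampling 3 weeks after weaning, while the sample labels give an age of 16-17 days and the stage as weaning, so the age at sampling is uncertain. Every comparison below is therefore between the tissues, or over pigs within a tissue.

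Fibroblasts and their progenitors fill the space between fat cells and between muscle fibres, and they make the collagen network that carries both tissues. In muscle, cells that carry the receptor PDGFRA are known as fibro-adipogenic progenitors, because they can become either matrix-forming fibroblasts or fat cells, and PDGFRA also marks the precursors of fat cells in adipose tissue. Decorin (DCN) is a small proteoglycan that binds collagen fibrils and limits their thickness. Fibulin-1 (FBLN1) joins elastic fibres and basement membranes, and periostin (POSTN) is a matricellular protein, one that signals to cells and aids collagen cross-linking. CILP2 belongs to a pair of matrix proteins first described in cartilage, ADAMTS4 cuts the large proteoglycans aggrecan and versican, and tetranectin (CLEC3B) is a secreted plasminogen-binding protein that serves as a marker of fibroblast-like cells.

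Levels are in counts-per-million (CPM), with each library scaled by a trimmed-mean factor, and no level is compared between genes, since gene lengths were not used. Adipose libraries held 2990913 to 5373406 gene counts and muscle libraries 4716541 to 6216459. The defining genes of each tissue stood where the labels put them. The 3 adipocyte genes found in the table (PLIN1, CIDEC, LIPE) summed to 573 to 1529 CPM in adipose and 25.5 to 282 CPM in muscle. The 6 muscle fibre genes found summed to 71316 to 450752 CPM in muscle and 119 to 24991 CPM in adipose, so some backfat libraries carried muscle fibre RNA. Of the adipose libraries, those of pigs Sample_889 and Sample_391 stood apart in the genes described here. The library of pig Sample_889 had the highest adipocyte sum of all adipose libraries (1529 CPM) and the lowest sum of 5 tendon and fascia genes (190 CPM). The library of pig Sample_391 had the highest tendon and fascia sum (6374 CPM, against a median of 1458 CPM), the highest sum of cartilage genes (854 CPM, against a median of 40.2 CPM) and the lowest sums of endothelial (341 CPM) and smooth muscle and pericyte genes (290.0 CPM). The tissue differences and the correlations that passed are followed by values without both animals where a call or a count of calls changed, except for single genes correlated with 1 of the 7.

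All 7 genes were higher in adipose than in muscle, in 18 of 18 pigs each. Of all 12542 genes tested, 46.7% were called higher in adipose by edgeR's quasi-likelihood test at an adjusted p under 0.05, and 28.6% were both called and higher in 18 of 18 pigs. The log2 differences (adipose minus muscle) lay between 2.19 for PDGFRA and 6.13 for CILP2, against a median of 0.14 over all genes tested. For every gene but FBLN1 this direction was known when the genes were grouped, and POSTN, CILP2 and ADAMTS4 were grouped with it in view, so it is a description and not a test. For 5 of the 7 genes the lowest adipose library lay above the highest muscle library, which held for 14.8% of all genes tested. In bulk tissue, more cells of a type and more RNA per cell cannot be told apart.

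POSTN, the matricellular gene, stood far apart between the tissues. In adipose it ran from 1173 CPM in pig Sample_889 through a median of 4305 CPM to 9344 CPM in pig Sample_77, and in muscle from 22.7 CPM in pig Sample_735 through a median of 105 CPM to 346 CPM in pig Sample_231. The groups did not overlap: the lowest adipose library was 3.39 times the highest muscle library. The log2 difference was 5.04 (SE 0.318), or 32.8-fold, and only 0.614% of the genes tested had a larger one. Within pigs the log2 difference ran from 2.41 in pig Sample_889 to 6.65 in pig Sample_735, the pig with the lowest POSTN level in muscle.

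CILP2 was plain in backfat and close to the limit of detection in muscle. Its adipose level ran from 5.89 CPM in pig Sample_889 through a median of 67.1 CPM to 452 CPM in pig Sample_391, and the second highest library, that of pig Sample_114, was at 140 CPM. In muscle the median was 0.631 CPM and 4 libraries reached 1 CPM. Pig Sample_391 was highest in muscle too, at 8.42 CPM, followed by pig Sample_889 at 3.45 CPM. In 3 muscle libraries the rounded count was 0, which allows up to 1.04 CPM in pig Sample_77, 1.08 CPM in pig Sample_176 and 0.863 CPM in pig Sample_659 (3 counts each, counting error only). The muscle level of pig Sample_391 exceeded the adipose level of pig Sample_889, so the groups overlapped by that pair of pigs. The log2 difference was 6.13 (SE 0.545), and 6.75 without pigs Sample_391 and Sample_889. Over all 18 muscle libraries CILP2 had 68.5 counts (95% exact Poisson interval 53.2 to 86.8), of which pig Sample_391 gave 38.7%.

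ADAMTS4 spanned a wide range in backfat, from 14.2 CPM in pig Sample_659 through a median of 58.1 CPM to 155 CPM in pig Sample_114. Its muscle level ran from a rounded count of 0 in pig Sample_911, which allows up to 1.02 CPM, through a median of 2.17 CPM to 7.34 CPM in pig Sample_186. No muscle library reached the lowest adipose library, which lay 1.94 times above the highest of them. The log2 difference was 4.91 (SE 0.352), and 13 of 18 muscle libraries reached 1 CPM.

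DCN was expressed in both tissues. In adipose it ran from 850.0 CPM in pig Sample_889 through a median of 3086 CPM to 7256 CPM in pig Sample_391, and in muscle from 223 CPM in pig Sample_735 through a median of 491.4 CPM to 801 CPM in pig Sample_231. The groups stood apart by little: the lowest adipose library was 1.06 times the highest muscle library. The log2 difference was 2.62 (SE 0.192, n = 18 per tissue). It was smallest in pig Sample_889, at 0.29, and the median over pigs was 2.77.

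FBLN1 ran from 100.2 CPM in pig Sample_889 through a median of 260 CPM to 369 CPM in pig Sample_572 in adipose, and from 18.0 CPM in pig Sample_731 through 44.3 CPM to 68.8 CPM in pig Sample_242 in muscle. Without pig Sample_889 the lowest adipose value was 194 CPM, in pig Sample_731, far from every muscle library. The log2 difference was 2.52 (SE 0.140, edgeR adjusted p = 2.8e-19, n = 18 per tissue).

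The 2 progenitor genes, CLEC3B and PDGFRA, were also expressed in both tissues. CLEC3B ran from 347 CPM in pig Sample_998 through a median of 465 CPM to 704 CPM in pig Sample_656 in adipose, and from 41.7 CPM in pig Sample_77 through 65.2 CPM to 122 CPM in pig Sample_491 in muscle. Its groups did not overlap, and its log2 difference was 2.79 (SE 0.129, n = 18 per tissue). Pig Sample_889, at 410.1 CPM, was not the lowest adipose library for this gene. PDGFRA ran from 24.8 CPM in pig Sample_889 through 69.4 CPM to 105 CPM in pig Sample_391 in adipose, and from 8.14 CPM in pig Sample_735 through 14.2 CPM to 25.9 CPM in pig Sample_491 in muscle. The adipose library of pig Sample_889 lay below the highest muscle library, and the next lowest adipose library, of pig Sample_911, was at 46.6 CPM, above all muscle libraries. The log2 difference of PDGFRA was 2.19 (SE 0.156, n = 18 per tissue).

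**Figure D1:**
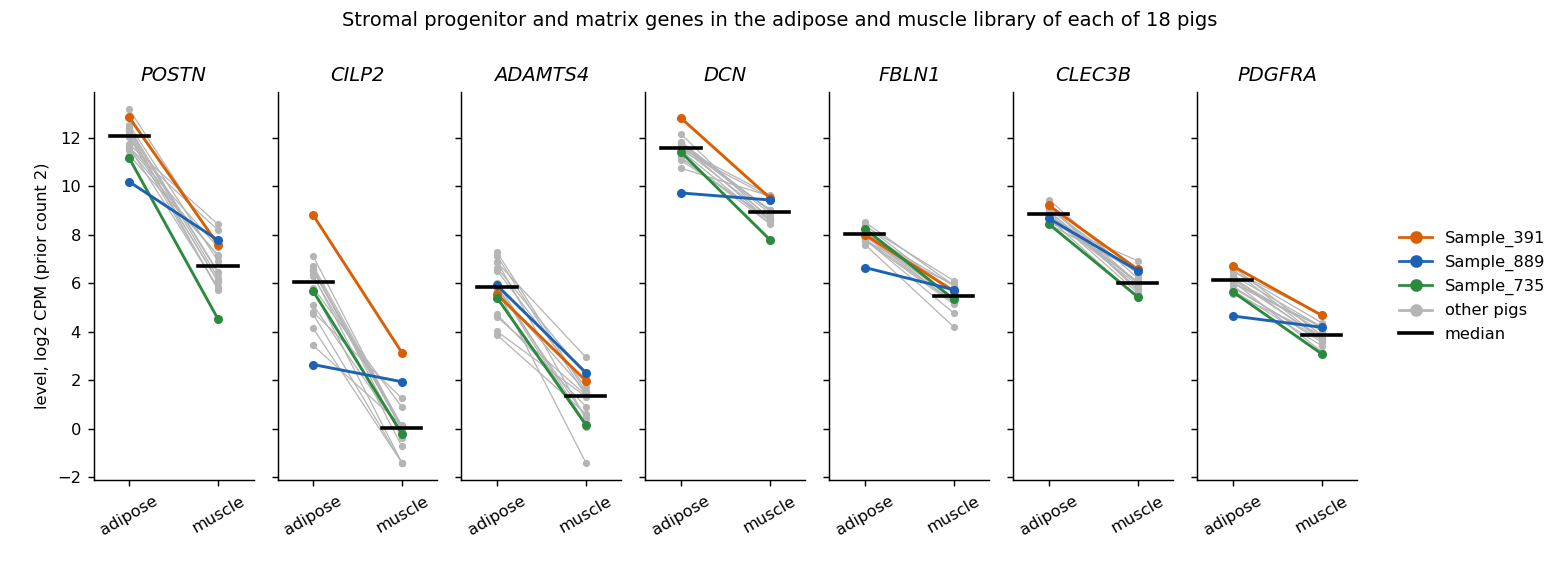
Level of each of the 7 genes (log2 CPM, prior count 2) in the adipose and the muscle library of each pig, joined by a line; black bars are medians over 18 pigs, and pigs Sample_391, Sample_889 and Sample_735 are coloured. Every line falls from adipose to muscle, and the line of pig Sample_889 is the flattest for POSTN, CILP2, DCN, FBLN1 and PDGFRA.

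Most genes of the same families, from lists drawn up by function, were higher in adipose as well. The counts and median differences between tissues include POSTN, CILP2, DCN, FBLN1, ADAMTS4, CLEC3B and PDGFRA in the lists that hold them. They are thus not counts of other genes alone, and each of these genes is compared with a median that includes it. Of 16 fibrillar collagen and collagen-processing genes tested, 15 were called higher in adipose and none higher in muscle, where the shares over all genes were 46.7% and 39.2%; the 1 that did not pass was PLOD1 (log2 difference 0.05, SE 0.102), a lysyl hydroxylase named after its value was seen. The chains COL1A2 (2.91, SE 0.323) and COL5A2 (1.91, SE 0.174), and PCOLCE, an enhancer of procollagen cleavage (1.96, SE 0.166), were among those higher in adipose. All 9 small leucine-rich proteoglycans tested were higher in adipose, among them FMOD (3.30, SE 0.424), BGN (2.56, SE 0.233) and LUM (1.59, SE 0.162), so DCN at 2.62 lay close to the list's median of 2.47. All 13 elastic fibre and fibulin genes tested were higher in adipose, with ELN, the gene of elastin, at 3.28 (SE 0.238), FBN1, of the microfibril scaffold, at 2.42 (SE 0.208) and FBLN2 at 1.89 (SE 0.119). FBLN1 stood at 2.52 on this scale, above the median of 2.18.

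Among 17 matricellular genes, 15 were higher in adipose and 1 was higher in muscle, while the remaining 1 missed the threshold. The median log2 difference was 2.26, and POSTN (5.04) and CILP2 (6.13) lay above it by a wide margin, together with the cartilage and tendon gene COMP (5.69, SE 0.533), named after its value was seen. CILP, the paralogue of CILP2, differed by 0.50 (SE 0.142); its mean was 364 ± 84.8 CPM over adipose and 257 ± 86.7 CPM over muscle libraries (SD, n = 18). FN1, the gene of fibronectin, differed by 2.48 (SE 0.218) and SPARC, which binds collagen, by 1.68 (SE 0.189). The exceptions were SPARCL1, higher in muscle by 0.67 (log2 difference -0.67, SE 0.169), and CCN1 (-0.39, SE 0.252), which did not pass. Both were named after their values were seen. With scaling by library totals alone both turned positive (0.72 and 1.03). They stayed below the median of all genes, which that scaling moves from 0.14 to 1.505.

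The ADAMTS list was the most mixed of the matrix lists. Of 10 genes tested, 7 were higher in adipose, 2 higher in muscle and 1, ADAMTS9 (0.18, SE 0.160), did not pass, with a median of 1.39. Besides ADAMTS4, the adipose side held its substrate versican (VCAN, 3.29, SE 0.214), the second aggrecanase ADAMTS5 (2.65, SE 0.214) and the inhibitor TIMP1 (1.33, SE 0.129). The muscle side held ADAMTS8 (-5.47, SE 0.472), with a mean of 183 ± 151 CPM over muscle and 4.24 ± 4.81 CPM over adipose libraries (SD, n = 18), and ADAMTS20 (-2.25, SE 0.183). ADAMTS5 and ADAMTS20 were named after their values were seen. The aggrecan gene ACAN was in the table but below the filter on low counts.

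Among the PDGF genes, PDGFRA had the largest log2 difference of the 6 tested (2.19). The partner receptor PDGFRB differed by 1.63 (SE 0.113), the receptor-like gene PDGFRL by 1.93 (SE 0.159) and the ligand PDGFC by 0.95 (SE 0.149). In all, 5 of 6 were higher in adipose, and the ligand PDGFA (-0.18, SE 0.115), named after its value was seen, did not pass. It turned positive (1.22) with library totals alone, still below the median of all genes under that scaling (1.505). Of 13 genes of the TGF-beta pathway, 10 were higher in adipose, 2 higher in muscle and 1 did not pass, with a median of 0.85. The pathway drives matrix synthesis in fibroblasts, and the list was not split by whether a gene aids or restrains it. The co-receptor TGFBR3 differed by 2.51 (SE 0.132), and the signal mediators SMAD3 (-0.30, SE 0.116) and SMAD4 (-0.90, SE 0.0721) were on the muscle side, but both turned positive with library totals alone (1.06 and 0.48). That scaling moves the median of all genes from 0.14 to 1.505, so these 2 genes stay below the median of all genes under either scaling.

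Of 10 progenitor and fibroblast genes tested, 8 were called higher in adipose, and 2 missed the threshold (SEMA3C at 0.25, SE 0.208, and DPP4 at 0.21, SE 0.152, the latter named after its value was seen). CLEC3B and PDGFRA, at 2.79 and 2.19, lay above the list's median of 1.596, and the endothelial and stromal co-receptor ENG was at 0.42 (SE 0.128). The list was found only in part: 8 of its 18 symbols, among them CD34 and THY1, had no line matched here. Macrophage (3 of 3), endothelial (2 of 2), tendon and fascia (5 of 5) and cell division genes (5 of 5) were also higher in adipose, with medians of 2.40, 0.72, 3.70 and 1.12. Of the smooth muscle and pericyte genes 3 of 4 and of the cartilage and bone genes 1 of 2 were higher in adipose, while the remaining genes of these lists, and the 2 skin epithelium and 2 nerve genes tested, did not pass. Their part in the differences of the 7 genes was not tested.

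**Figure D2:**
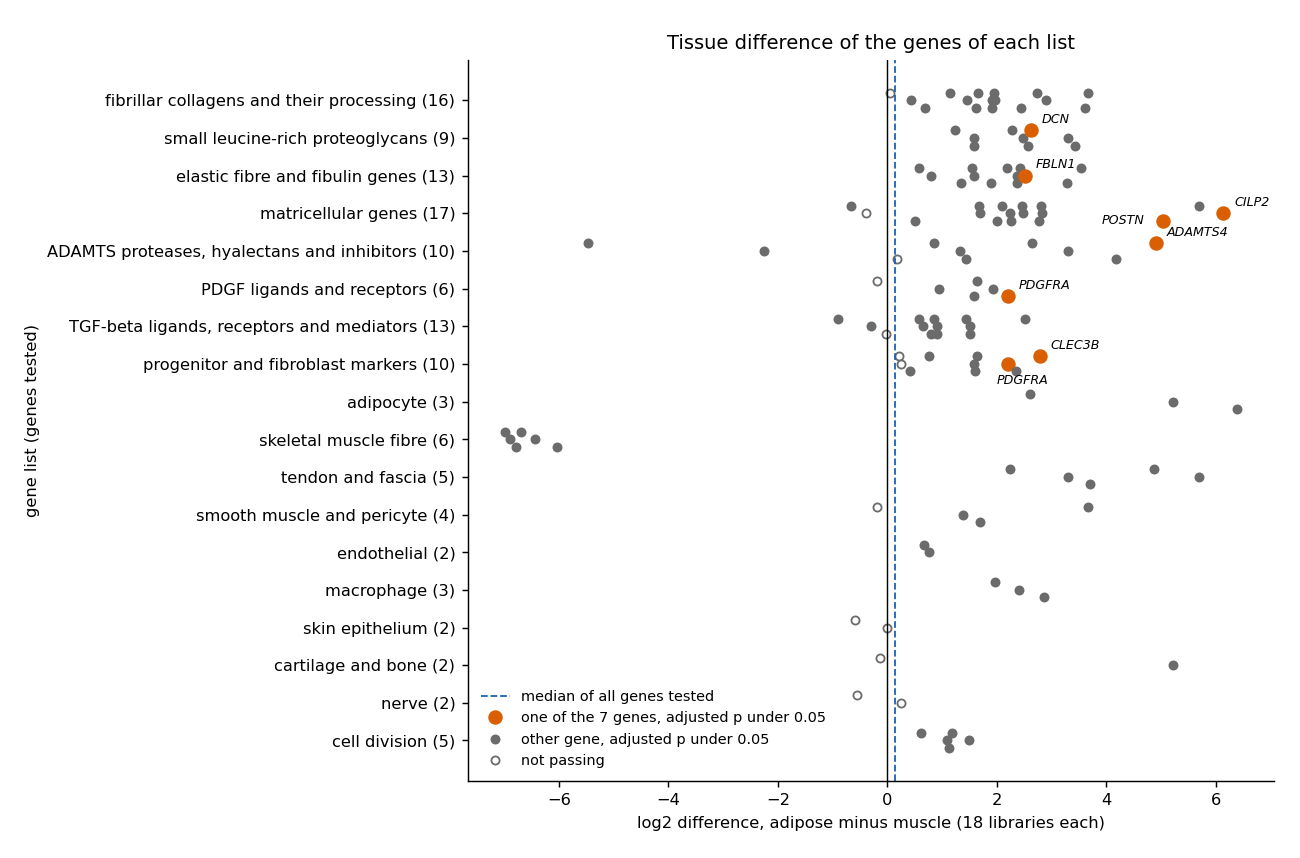
Log2 difference between adipose and muscle (x axis, 18 libraries each) of every tested gene in 18 lists (y axis, number tested in brackets); orange points are the 7 genes, filled points passed at an adjusted p under 0.05, and the dashed line is the median of all genes (0.14). CILP2 (6.13) and ADAMTS4 (4.91) are the rightmost points of their lists and POSTN (5.04) lies to the left of COMP (5.69) and CILP2, while DCN and FBLN1 lie among the other genes of theirs, and CLEC3B and PDGFRA lead the progenitor and the PDGF list by less than 1 unit.

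Over pigs, the 7 genes varied unequally. In adipose the SD of log2 CPM was 1.45 for CILP2, larger than that of 99.0% of the genes that reached 1 CPM in 15 or more of the 18 libraries, and 1.01 for ADAMTS4 (97.7%). It was 0.692 for POSTN (92.2%), 0.628 for DCN (89.7%), 0.501 for PDGFRA (81.4%), 0.413 for FBLN1 (69.9%) and 0.294 for CLEC3B (44.1%). CLEC3B thus varied over pigs about as much as a typical gene. In muscle the SD of POSTN was 1.01 (98.3%), and those of DCN, FBLN1, CLEC3B and PDGFRA lay between 0.427 and 0.492. A test of the difference in SD between tissues, swapping the tissue labels within pigs 100000 times, called 0 of 5 genes at an adjusted p under 0.05 and 0 at an unadjusted p under 0.05 (the lowest was CLEC3B, SD 0.294 in adipose and 0.427 in muscle, p = 0.0699, adjusted p = 0.35).

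Single animals set the ends of these ranges. In adipose, pig Sample_889 was lowest for 5 of the 7 genes (all but ADAMTS4 and CLEC3B), and it was the lowest library for 11.9% of all genes compared and for 41 of 84 genes of the 8 matrix and progenitor lists. Pig Sample_391 was the highest adipose library for CILP2, DCN and PDGFRA, for 37 of the 84 list genes and for 11.3% of all genes. In muscle, pig Sample_735 was lowest for POSTN, DCN and PDGFRA, for 37 of 82 list genes and for 11.3% of all genes. The position of pig Sample_889 was not low in muscle, where it was the highest library for 28 of the 82 list genes and for 8.11% of all genes. It was among the top 3 for 4 of the 7 genes, POSTN, CLEC3B, CILP2 (12 counts) and ADAMTS4 (16.5 counts). The counts of CILP2 and ADAMTS4 were low in muscle, and the share of all genes with this pig in the top 3 was not computed.

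Whether the 7 genes go up and down together over pigs was tested by Spearman's rho on log2 CPM, with 100000 two-sided permutations of the pigs and Benjamini-Hochberg adjustment over 31 pairs. In muscle the pairs were formed from the 5 genes that reached 1 CPM in 15 or more libraries, so CILP2 and ADAMTS4 were left out there. POSTN and DCN moved together in both tissues. In adipose their rho was 0.703 (permutation p = 0.00143, adjusted p = 0.0148, n = 18), with Pearson's r of 0.771 (permutation p = 0.00057) and 0.642 without the 2 libraries farthest from the POSTN median. In muscle their rho was 0.777 (permutation p = 0.0003, adjusted p = 0.0093, n = 18), with r of 0.778 (permutation p = 0.0002) and 0.606 without the 2 farthest libraries. Both calls held when any 1 pig was left out. Without the 4 pigs whose backfat held the most ACTA1, the gene of skeletal muscle actin (pigs Sample_731, Sample_391, Sample_911 and Sample_176), neither passed, with a rho of 0.697 in adipose and 0.688 in muscle (adjusted p = 0.0651 for both), and no other pair passed either. Without pigs Sample_391 and Sample_889 together, a choice made after seeing the data, rho was 0.735 in muscle (adjusted p = 0.0484), and 0.588 in adipose, where the pair no longer passed (adjusted p = 0.139).

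DCN was in 4 of the 5 pairs that passed. In adipose CILP2 and DCN had a rho of 0.649 (permutation p = 0.00404, adjusted p = 0.025, n = 18) and an r of 0.813 (permutation p = 9e-05), which was 0.548 without the 2 libraries farthest from the CILP2 median. This call did not survive the omission of pig Sample_176 (adjusted p = 0.0637), Sample_391 (0.0998), Sample_572 (0.0645), Sample_735 (0.0552) or Sample_889 (0.0961), each alone, with rho between 0.583 and 0.620. Its rho was 0.50 without pigs Sample_391 and Sample_889 together (adjusted p = 0.262). In muscle DCN and CLEC3B had a rho of 0.711 (permutation p = 0.00124, adjusted p = 0.0148, n = 18; r = 0.765, permutation p = 0.00021; r = 0.716 without the 2 farthest libraries). The fifth pair was FBLN1 and PDGFRA in muscle, with a rho of 0.680 (permutation p = 0.0025, adjusted p = 0.0194, n = 18; r = 0.671, permutation p = 0.00174; r = 0.627 without the 2 farthest libraries). The calls of these 2 muscle pairs held when any 1 pig was left out. Without pigs Sample_391 and Sample_889 together, neither of them passed (rho 0.618, adjusted p = 0.131, and rho 0.671, adjusted p = 0.0831).

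In total 2 of 21 pairs passed in adipose and 3 of 10 in muscle, all positive. Over all pairs, those that passed included, 20 of 21 rho values were above 0 in adipose, with a median of 0.224. In muscle 10 of 10 were above 0, with a median of 0.522. The pair below 0 was CILP2 and ADAMTS4 in adipose (rho -0.17). Over all genes, the share with a rho above 0 lay between 46.0% (with FBLN1) and 53.0% (with CLEC3B) in adipose. In muscle it lay between 45.2% (with DCN) and 49.0% (with FBLN1). In backfat ADAMTS4 had rho between -0.17 and 0.381 to the other 6 genes, and none of its pairs passed. The same held by rho for FBLN1 (0.013 to 0.418), CLEC3B (0.168 to 0.439) and PDGFRA (up to 0.525). By Pearson's r, which weighs the extreme libraries more, 4 pairs passed in adipose and 6 in muscle. In adipose, FBLN1 and PDGFRA had an r of 0.704 (permutation p = 0.00583) and a rho of 0.418 (permutation p = 0.0872), and r was 0.217 without the 2 libraries farthest from the FBLN1 median, so that relation rests on those libraries.

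**Figure D3:**
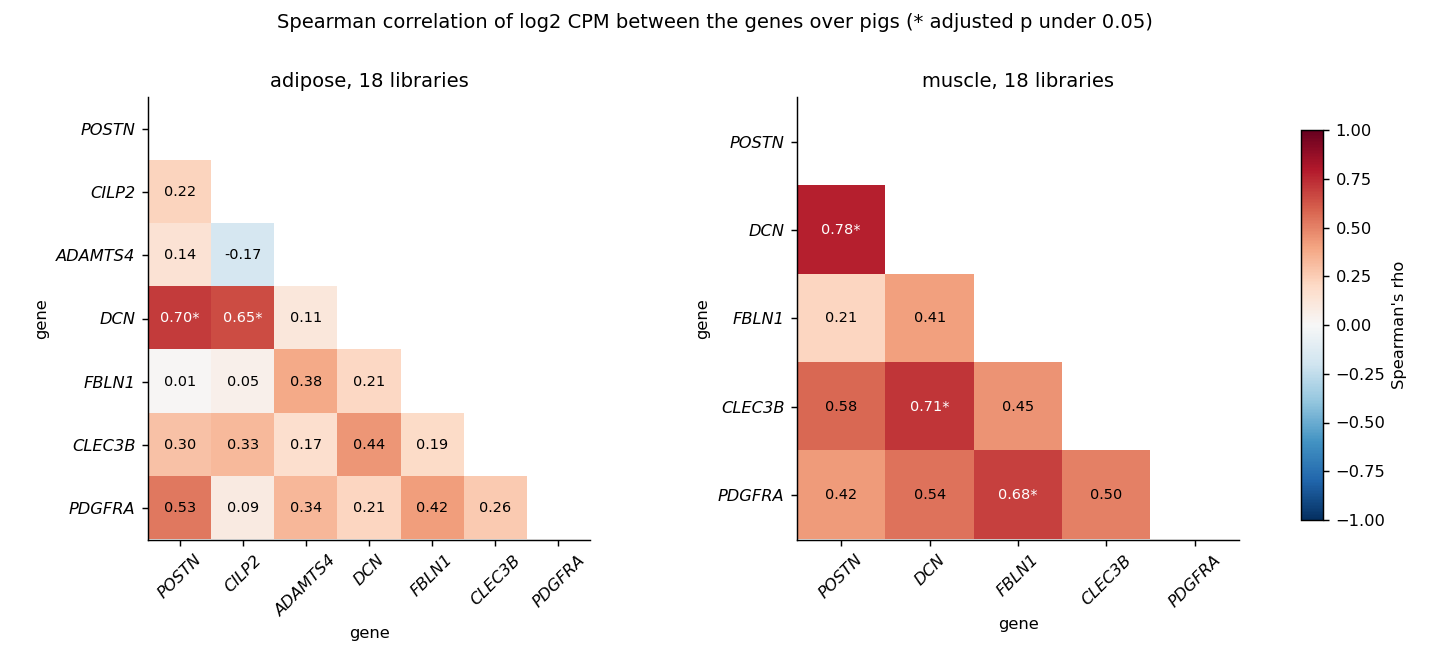
Spearman's rho of log2 CPM over 18 libraries between the genes on both axes, in adipose (7 genes) and in muscle (5 genes); an asterisk marks an adjusted p under 0.05. The marked cells are POSTN with DCN (0.70) and CILP2 with DCN (0.65) in adipose, and POSTN with DCN (0.78), DCN with CLEC3B (0.71) and FBLN1 with PDGFRA (0.68) in muscle.

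A pair that passed in 1 tissue was not shown to differ from the other tissue. The difference in Pearson's r between adipose and muscle, tested by swapping the tissue labels within pigs, passed for 0 of 10 pairs at an adjusted p under 0.05. By unadjusted p under 0.05 there were 2, DCN with CLEC3B (r lower in adipose, difference -0.38, permutation p = 0.0197, adjusted p = 0.0983) and POSTN with CLEC3B (-0.31, permutation p = 0.0193, adjusted p = 0.0983). On ranks the same test gave adjusted p of 0.561 for both.

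Next the level of a gene in a pig's backfat was set against its level in the same pig's muscle. None of the 5 genes tested passed, and the share that passed over 11109 genes was 0.621% (69 genes with a positive rho); at an unadjusted p under 0.05 the count for the 5 genes was also 0. PDGFRA had a rho of 0.451 (permutation p = 0.0614, adjusted p = 0.381, n = 18) and FBLN1 of 0.381 (permutation p = 0.122, adjusted p = 0.482, n = 18), both above the median of all genes, 0.185. DCN (0.04), POSTN (-0.01) and CLEC3B (-0.09) lay below it. Pearson's r was 0.298 for PDGFRA, 0.25 for FBLN1 and between -0.09 and -0.06 for the other three. Pig Sample_889 is an example for DCN: its library was the lowest in adipose and above the muscle median. Without pigs Sample_391 and Sample_889 the rho of FBLN1 was 0.562 (permutation p = 0.0249, adjusted p = 0.281, n = 16).

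**Figure D4:**
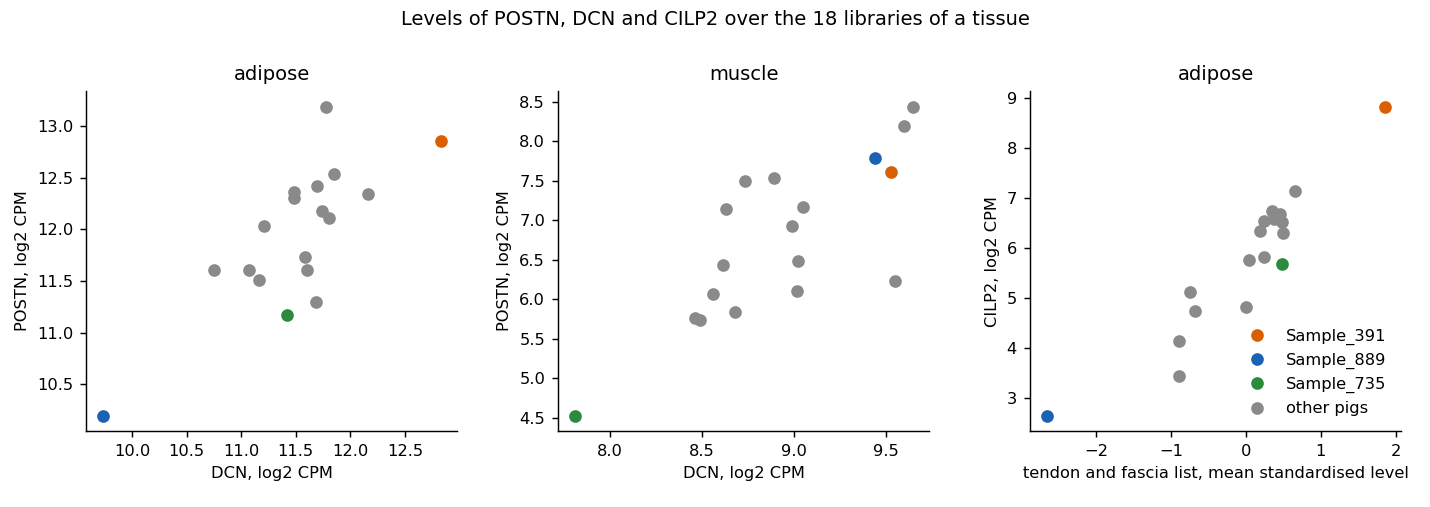
Scatter of POSTN against DCN (log2 CPM) over 18 adipose and 18 muscle libraries, and of CILP2 (log2 CPM) against the mean standardised level of 5 tendon and fascia genes over 18 adipose libraries; each point is a library. Pigs Sample_889 and Sample_391 lie near opposite corners of both adipose panels, and pig Sample_735 lies at the lower left in muscle.

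The genes nearest to each of the 7, out of those with a symbol and a mean of at least 10 CPM, differed from gene to gene. For CILP2 in adipose they were COL2A1, the collagen of cartilage (rho 0.911), SEMA3B, a semaphorin (0.905), and FMOD, a collagen-binding proteoglycan of tendon (0.897; r = 0.964, and 0.922 without the 2 libraries farthest from the CILP2 median). Each of the 3 had a permutation p of 1e-05, the smallest these permutations can give, and an adjusted p of 0.0252. Over all genes, 13 of 12601 were correlated with CILP2 in adipose (0.103%), all positively. COL11A1, a further cartilage and tendon collagen (rho 0.874, adjusted p = 0.0252), was also among them and was named after its value was seen. COL2A1 itself depended on 1 animal for its level: it reached 763 CPM in pig Sample_391, against an adipose median of 27.9 CPM. The count of 13 was 0 without pigs Sample_391 and Sample_889, 0 without the 4 pigs whose backfat held the most ACTA1 and 0 without pigs Sample_656, Sample_572 and Sample_735, and by Pearson's r it was 201.

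For DCN in adipose the nearest genes were SERPINF1, which encodes a secreted factor of fat and stromal cells (rho 0.942, r = 0.90), AEBP1, a collagen-binding protein of fibroblasts and fat cell precursors (0.893), and SLC35F5 (0.886), each with an adjusted p of 0.0315. In all 6 genes passed (0.0476%), all positive, and EFEMP2, which assembles elastic fibres, was another of them (0.868, adjusted p = 0.042; named after its value was seen). In muscle 7 of 11702 genes passed (0.0598%), all positive, led by TFPI2, a matrix-bound protease inhibitor (0.889), ANGPTL1 (0.882) and ASPN, asporin, a proteoglycan of the same family as DCN (0.882), each with an adjusted p of 0.0293. Both counts were 0 without pigs Sample_391 and Sample_889 and 0 without the 4 pigs whose backfat held the most ACTA1, and by Pearson's r they were 338 in adipose and 71 in muscle.

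PDGFRA in adipose and POSTN in muscle were correlated with many more genes. For PDGFRA in adipose, 442 genes had a positive (3.51%) and 183 a negative rho (1.45%). The nearest were PEAK1, a pseudokinase of the cytoskeleton (0.913), HUWE1, a ubiquitin ligase (0.911), and SCAF8 (0.905), each with an adjusted p of 0.0105, and the farthest was PLGRKT, a plasminogen receptor (-0.85, adjusted p = 0.0137). For POSTN in muscle, 95 genes had a positive (0.812%) and 217 a negative rho (1.85%). S100A6, a calcium-binding protein (0.884, adjusted p = 0.009), and the annexins ANXA1 (0.870, adjusted p = 0.00975) and ANXA5 (0.837, adjusted p = 0.0179) were nearest, and CUL1, a ubiquitin ligase scaffold, was farthest (-0.92, adjusted p = 0.009). Of the small leucine-rich proteoglycans 2 of 9 passed, DCN and ASPN (0.752, adjusted p = 0.0278). Of the TGF-beta list 1 of 13 passed, TGFB3 (0.725, adjusted p = 0.043), named after its value was seen. No gene of the remaining matrix and progenitor lists passed with POSTN in muscle. The count for POSTN was 0 with scaling by library totals alone and 10 without pigs Sample_656, Sample_572 and Sample_735, and that for PDGFRA was 116 without the 4 pigs with the most ACTA1. Without pigs Sample_391 and Sample_889, PDGFRA in adipose had 63 genes with a positive and 16 with a negative rho, and POSTN in muscle had 20 and 89.

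For the remaining cases no gene passed at an adjusted p under 0.05, although many had an unadjusted p under 0.05. These cases were POSTN, ADAMTS4, FBLN1 and CLEC3B in adipose, and FBLN1, CLEC3B and PDGFRA in muscle. Their unadjusted counts ran from 946 of 11702 genes (FBLN1 in muscle) to 1906 of 12601 (ADAMTS4 in adipose). Pearson's r also gave 0 for these, except for PDGFRA in muscle, with 40. When pigs Sample_391 and Sample_889 were left out, ADAMTS4 in adipose had 37 genes with a positive and 28 with a negative rho, and the other cases stayed at 0. The smallest p these permutations can give is 1e-05, so a gene can pass only where several others have a p near it. TGFBR3 with FBLN1 in muscle had that p and an adjusted p of 0.117. The counts of 0 are thus partly set by the number of permutations, and the nearest genes are a description. For POSTN in adipose they included COL14A1, a collagen that lies on fibril surfaces (rho 0.810, adjusted p = 0.109). They were ABCA9 (0.853), NR2C1 (0.847) and SLC22A3 (0.841) for ADAMTS4 in adipose, each with an adjusted p of 0.0788. They included TGFBR3 for FBLN1 in muscle (0.880, adjusted p = 0.117), MFAP2, a microfibril gene, for CLEC3B in muscle (0.789, adjusted p = 0.207) and PTGIS, prostacyclin synthase, for PDGFRA in muscle (0.853, adjusted p = 0.0807).

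Markers of other cells in the samples (115 relations) and the library total (12 relations) were set beside each gene, with p-values adjusted over all 127. CILP2 in adipose moved with the tendon and fascia level (TNMD, MKX, FMOD, COMP, THBS4), with a rho of 0.822 (permutation p = 8e-05, adjusted p = 0.0102, n = 18) and an r of 0.935 (permutation p = 1e-05, the smallest possible), which was 0.893 without the 2 libraries farthest from the median of that level. Without pigs Sample_391 and Sample_889 the rho was 0.747 (permutation p = 0.0013, n = 16), which no longer passed (adjusted p = 0.165), while r, at 0.893, did (adjusted p = 0.00127). TNMD, tenomodulin, was at 7.07 to 702 CPM in adipose and had a rho of 0.824 to CILP2 (adjusted p = 0.0565 over all genes; named after its value was seen). DCN in adipose had a rho of 0.682 with the tendon and fascia level (adjusted p = 0.0881) and an r of 0.899 (adjusted p = 0.0019), which was 0.641 (adjusted p = 0.208) without pigs Sample_391 and Sample_889. With that level removed by regression, a choice made after seeing the data, CILP2 and DCN had a rho of -0.23 (adjusted p = 0.481), and POSTN and DCN a rho of 0.789 (adjusted p = 0.00465).

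In muscle, PDGFRA moved with the smooth muscle and pericyte level (ACTA2, TAGLN, MYH11, CSPG4), with a rho of 0.740 (permutation p = 0.00057, adjusted p = 0.0362, n = 18) and an r of 0.747 (permutation p = 0.0003), which was 0.617 without the 2 farthest libraries. The rho was 0.706 without pigs Sample_391 and Sample_889 (permutation p = 0.00322, n = 16) and no longer passed (adjusted p = 0.204). Summed over the list, these genes ran from 125 CPM in pig Sample_735 to 545 CPM in pig Sample_242. No relation to the adipocyte, muscle fibre or macrophage level passed in either tissue for any gene tested, and CILP2 and ADAMTS4 were not tested in muscle. ACTA1 RNA in backfat, which differed widely between pigs (52.4 to 17526 CPM), had a rho of 0.226 with POSTN in adipose (adjusted p = 0.709). No relation to the library total passed; DCN in muscle, with a rho of 0.503 (permutation p = 0.0359, adjusted p = 0.303), was the 1 with an unadjusted p under 0.05. Of 24 relations to the share of counts outside genes and the scaling factor none passed by rho. At an unadjusted p under 0.05 there were 3, FBLN1 in adipose with the share of counts outside genes (rho 0.678, permutation p = 0.0028, adjusted p = 0.0672), and DCN (rho -0.60, permutation p = 0.0101, adjusted p = 0.121) and POSTN in adipose (rho -0.52, permutation p = 0.0276, adjusted p = 0.221) with the scaling factor.

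Each of the 7 genes was also set against whole lists over pigs. The values that follow are medians of rho over list genes within 1 tissue, given as a description, since genes of a list share libraries. In adipose, fibrillar collagen genes had a median rho of 0.53 with DCN, 0.51 with CILP2 and 0.35 with POSTN, but -0.07 with ADAMTS4 and -0.14 with FBLN1. Over all genes the median rho with each of the 7 lay between -0.03 and 0.02 in adipose. The elastic fibre and fibulin list, to which FBLN1 belongs, had a median of 0.04 with FBLN1 in adipose and 0.45 in muscle. ADAMTS4 had a median of 0.14 with the ADAMTS list and a rho of -0.23 with VCAN. PDGFRA in adipose had a median of -0.10 with the other 5 PDGF genes, with PDGFRB at -0.17, PDGFC at -0.12 and PDGFRL at 0.29. The highest of them was the ligand PDGFD, at 0.587, named after its value was seen, and none of the 5 passed. With the other progenitor genes the median of PDGFRA was 0.08.

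Within the TGF-beta list 2 receptor genes passed with PDGFRA in adipose, TGFBR2 (rho 0.829, adjusted p = 0.0153; named after its value was seen) and TGFBR3 (rho 0.701, adjusted p = 0.0381). In muscle the medians were higher for most lists. The small leucine-rich proteoglycans had a median rho of 0.62 with POSTN, 0.59 with DCN, 0.57 with CLEC3B and 0.54 with PDGFRA. Progenitor and fibroblast genes had 0.50 with PDGFRA and 0.48 with POSTN, against medians over all genes between -0.04 and -0.01. The difference between the tissues in these list medians was not tested.

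**Figure D5:**
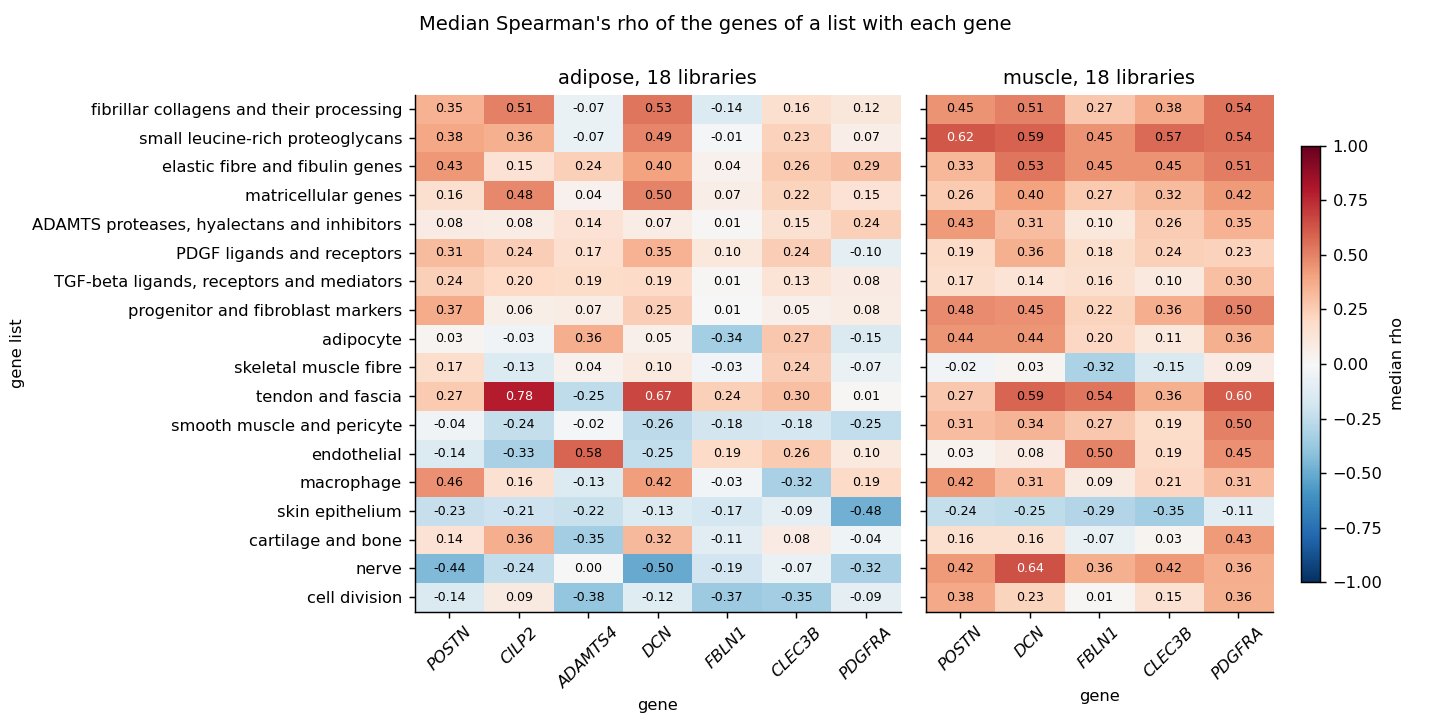
Median of Spearman's rho between the genes of each list (rows) and each of the 7 genes (columns), over 18 adipose libraries (left) and 18 muscle libraries (right, 5 genes). The darkest cells in adipose are those of the tendon and fascia list with CILP2 (0.78) and DCN (0.67), and most cells of the matrix lists are redder in muscle than in adipose.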

How the data were processed

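The authors deposited 1 table of expected counts per Ensembl gene, not normalised, in steps of 0.5 (35.1% of gene values were not whole). GSNAP and HTSeq are named in the submitters' processing notes, without versions. Genome build, annotation and any use of strand were not given in the sources used here. Libraries were made with a TruSeq kit and sequenced as read pairs, per the labels' protocols. Tissue and pig came from the sample titles, and columns left unused numbered 0. Another 5 lines, which carry no gene name, were kept out of library sizes; the largest of them, counts in no annotated gene, made up 34.5% ± 5.60 of adipose and 19.9% ± 4.01 of muscle libraries (SD, n = 18). A symbol was found for 11804 of 25322 identifiers.

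Counts were rounded to whole numbers. The tissue test was edgeR 4.0.16 (R 4.3.3), quasi-likelihood with a robust fit and trimmed-mean factors (mean 1.62 in adipose, 0.626 in muscle). The default filter left 12542 genes, with Benjamini-Hochberg adjustment and a threshold of 0.05. Tissue was the only term, so the adipose and muscle libraries of a pig were treated as independent. A fit with pig as a block was run beside it. DESeq2 1.42.0 was an alternative. Correlations used log2 CPM (prior count 2) in Python 3.11.15 with pandas 2.3.3, SciPy 1.17.1 and NumPy 2.4.6; a marker level is the mean of values standardised over 18 libraries. Figures were drawn with Matplotlib 3.10.9. The main edgeR fit, the DESeq2 fit, the correlations over all genes and the label swaps were tested on simulated data. The other alternatives were not, and the simulated libraries held no pig effect.

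Pigs are separate animals, and libraries with 1 number come from 1 pig, so the numbers pair the samples. Deviations from the tissue mean correlated at 0.231 on average within pigs (0.0996 to 0.368) and at -0.01 between pigs. The 7 genes and the 18 lists were chosen with earlier results of these data known. Besides the 7 genes, the rule named up to 4 genes of each of 8 lists and 2 of each of 10 other-cell lists with the highest mean CPM, and per gene and tissue the 3 nearest genes and the farthest with a mean of at least 10 CPM; not all are described, and 1 is not reported here. A further 16 genes were named after their values were seen, and so were TGFB3 and PDGFD. Intervals and floors cover counting error only.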

Additional observations from a re-analysis of the deposited data

How the results depend on the processing

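All 7 genes stayed higher in adipose, past the threshold, under all 27 alternatives. Of the 66 named genes followed in this way, 50 kept both their direction and their call, passed or not passed, under every alternative. Library totals alone called 10148 genes (5853 with trimmed-mean factors) toward adipose and 1520 (4919) toward muscle, and no filter gave 9077 higher in adipose. With pig as a replicate block the counts were 5944 and 4944, and no call among the 7 genes changed. Library totals alone turned SPARCL1 (0.72), CCN1 (1.03), PDGFA (1.22), TGFB2 (1.41), SMAD3 (1.06), SMAD4 (0.48), ACTA2 (1.27), KRT10 (1.37), DSP (0.83) and SOX9 (1.28) positive. All of these values lay below the median of all genes under that scaling, 1.505. Values near 0 also changed sign: TGFB2 was 0.024 with the replicate block, 0.0082 without a filter and 0.076 without the 4 pigs with the most ACTA1 in adipose. Without those 4 pigs ACTA2 was 0.031, SOX9 0.055 and KRT10 0.0076; KRT10 was 0.016 without a filter and 0.017 without pigs Sample_391 and Sample_889. Leaving out 1 pig at a time, TGFB2 ran from -0.075 to 0.070, KRT10 from -0.084 to 0.039, and the pairs that passed in adipose from 1 to 3.

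Pairs that passed in adipose (2) numbered 4 by Pearson's r, 1 with the library total removed, 0 without the 4 pigs, 0 without pigs Sample_391 and Sample_889, and 1 with the tendon and fascia level removed, where CILP2 and DCN had -0.23. In muscle (3) they numbered 6 by Pearson's r, 6 with library totals alone, 0 without the 4 pigs and 1 without pigs Sample_391 and Sample_889. Without the 4 pigs all 5 calls were lost, with rho of 0.697 for POSTN and DCN and 0.538 for CILP2 and DCN in adipose, and of 0.688 for POSTN and DCN, 0.701 for DCN and CLEC3B and 0.723 for FBLN1 and PDGFRA in muscle, over 14 pigs.

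Genes correlated with CILP2 in adipose (13) numbered 201 by Pearson's r, 33 with library totals alone, 78 with ACTA1 removed, 39 with the library total removed, and 0 without the 4 pigs or without pigs Sample_656, Sample_572 and Sample_735. For DCN in adipose (6) these were 338, 0, 118, 92, 0 and 0. For PDGFRA in adipose (625) they were 938 by Pearson's r and 116 without the 4 pigs. For POSTN in muscle (312) they were 1065 by Pearson's r, 0 with library totals alone, 739 with the library total removed, 103 without the 4 pigs and 10 without the other three. For DCN in muscle (7) they were 71 by Pearson's r, 0 with library totals alone, 12 with factors within each tissue, 19 with ACTA1 removed, 0 with the library total removed, and 0 without either set of pigs. Where the count was 0, library totals alone gave 1456 for FBLN1, 298 for CLEC3B and 72 for PDGFRA in muscle; PDGFRA in muscle also gave 40 by Pearson's r, 74 with factors within each tissue and 103 with the library total removed. Without pigs Sample_391 and Sample_889 the counts were 0 for CILP2 and DCN in adipose and for DCN in muscle, 79 for PDGFRA in adipose, 109 for POSTN in muscle and 65 for ADAMTS4 in adipose. The cause of these changes was not tested. The low counts of CILP2 and ADAMTS4 in muscle limit what can be said of them there.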
